A study of Mus musculus with 12 samples.

Results

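Interferon regulatory factors are transcription factors that read interferon and pathogen signals, and 8 of their genes (Irf1, Irf2, Irf3, Irf4, Irf5, Irf7, Irf8 and Irf9) were followed across B16F10, a mouse melanoma cell line. The members were the rows of the raw count table whose Ensembl identifier maps to one of these symbols, which gave 8 of 54232 genes, all of them among the 14924 genes tested. Irf8, with 1 read over all of WT, and Irf4, with 8, passed the filter on low counts through other groups, so they had to be higher there.

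RNA was sequenced from 12 libraries in 4 groups of 3, to ask which genes accompany the cell-in-cell state that B16F10 cells enter under T-cell attack. WT cells were untreated cultures. Relapsed libraries were the lines ITF1, Rel and ITM, sorted from tumors that came back after immunotherapy in mice and grown in culture before extraction. Lyso cells were cultures given lysosomes, also called secreted granules, from activated CD8+ T cells, for 48 h by the labels and for a shorter time by the study's methods. Tumor libraries (Tumor1, Tumor3 and Tumor4) were B16F10 cells sorted from relapsed tumors with RNA taken at once. No library came from an untreated tumor. In Tumor against WT, relapse after immunotherapy therefore cannot be told apart from growth in the mouse and sorting. The immunotherapy was an anti-CD40 agonist, TNFα and an antibody to TRP1. All 12 libraries carry the labels C57BL/6 and 6 weeks, which the labels give as the age of the mice that received tumors, while the study's methods give an older age for its mice. Each relapsed library is a separate line, and nothing in the labels says whether the WT or Lyso libraries came from separate cultures, so their spread may be technical.

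Reads on genes ran from 1667398 in WT1 and 2350129 in WT2 to 16402629 in ITM, and WT3 held 16384021. A count of 0 therefore allowed up to 1.8 CPM (counts-per-million of the library's reads on genes, with TMM scaling wherever the level of a gene is given) in WT1 and 0.183 CPM in WT3, taking 3 counts as the floor, and such floors cover counting error only. WT3 also stood apart from WT1 and WT2 in interferon-stimulated genes: 20 targets of the ISGF3 complex summed to 801 CPM in WT3, 161 CPM in WT1 and 138 CPM in WT2. WT3 was also the deepest WT library, while ITM, of similar depth, summed to 158 CPM for these targets. The cause of the WT3 difference was not tested, so the results that turn on WT3 are marked where they are given. All 10 melanocyte markers were above the floor in each of the 12 libraries, with summed levels of 19800 to 37400 CPM.

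In cells that meet interferon-gamma, the receptor and its JAK kinases act through GAS elements to switch on Irf1, whose protein carries the response on to antigen-processing and GTPase genes. Type I interferon instead assembles the ISGF3 complex, of which IRF9 is a subunit and which binds ISRE elements and induces Irf7. IRF2 competes with IRF1 for the same sites, IRF8 and IRF4 act mainly in immune cells, and IRF3 and IRF5 wait in the cytoplasm until a pathogen sensor activates the protein. In pigment cells IRF4 works with MITF on the tyrosinase gene.

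Irf1, a transcriptional activator induced by interferon-gamma, rose in Lyso and, less, in Tumor. The gene (ENSMUSG00000018899) lies at chr11:53770014-53778374 on the plus strand of GRCm38. Its level was 4.53, 8.02 and 17.9 CPM in WT1, WT2 and WT3, and 17.2, 17.5 and 12.1 CPM in ITF1, Rel and ITM. Lyso1, Lyso2 and Lyso3 held 658, 746 and 758 CPM. Tumor1, Tumor3 and Tumor4 held 35.4, 64.6 and 173 CPM. Each Lyso library thus exceeded each Tumor library, each Tumor library exceeded each cultured control, and the relapsed lines overlapped WT. In edgeR's quasi-likelihood test with Benjamini-Hochberg adjustment over all genes, Irf1 rose by 5.89 ± 0.57 (log2 fold change ± SE) in Lyso against WT (adjusted p = 0.000193), and by 2.91 ± 0.52 in Tumor against WT (adjusted p = 0.00198). It was 2.98 ± 0.48 log2 units lower in Tumor than in Lyso by the same test, a log2 fold change of -2.98 (adjusted p = 0.00067). Relapsed and WT differed by 0.35 ± 0.51, with an approximate interval of -0.65 to 1.36. Leaving out Tumor4, the highest tumor library, the change in Tumor against WT was 2.06 (adjusted p = 0.00431), and leaving out WT3 it was 3.82 (adjusted p = 0.00359). The change in Lyso was 6.81 without WT3. The Irf1 gene shares 135 exonic bases (3.4% of its exons) with Gm17334 on the opposite strand, and the strand setting of the counting was not given in the sources used here.

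**Figure D1:**
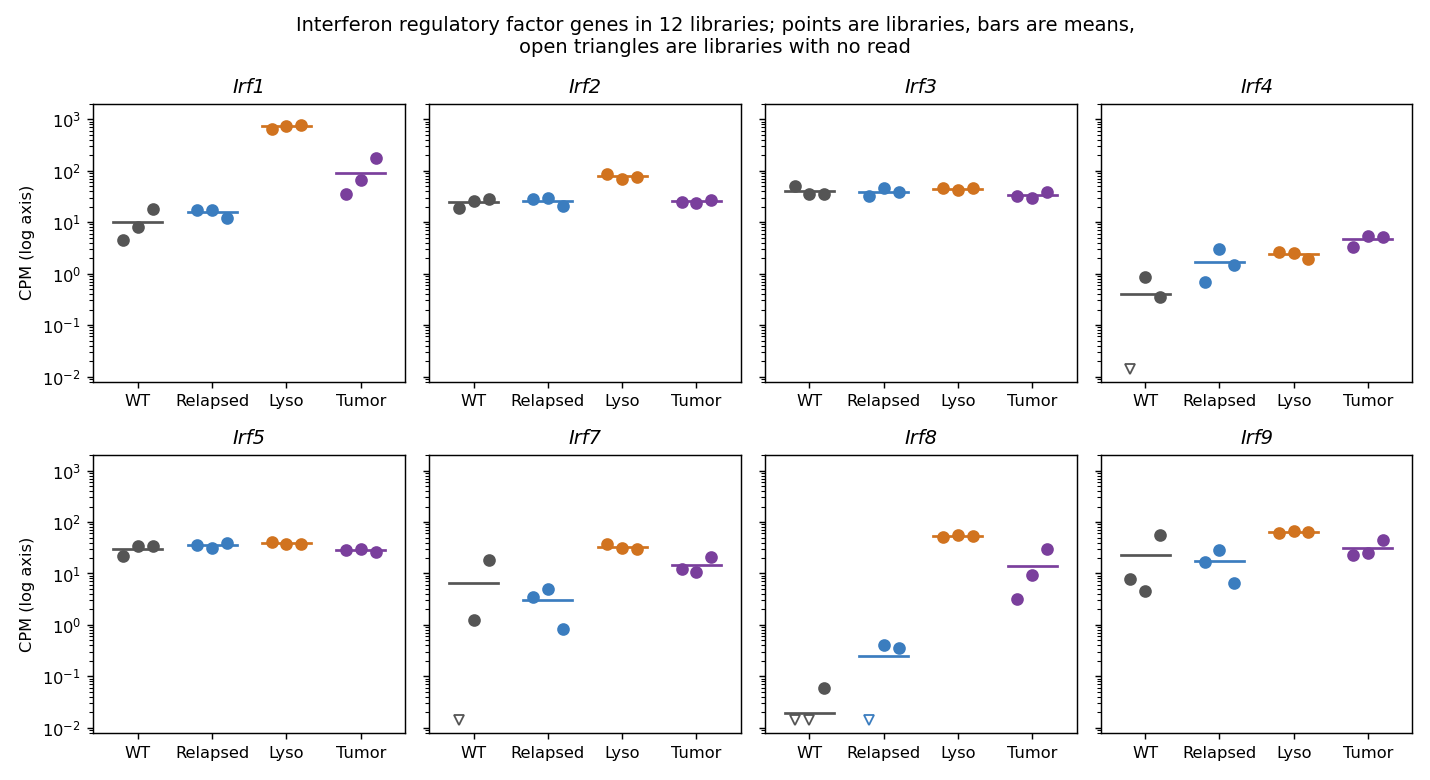
Level of each of the 8 genes (CPM, log axis) in the 3 libraries of WT, Relapsed, Lyso and Tumor, with group means as bars and libraries without a read as open triangles. Irf1 lies at 658 to 758 CPM in Lyso against 4.53 to 17.9 CPM in WT, Irf8 leaves the floor in Lyso and Tumor, and Irf3 and Irf5 lie within 21.5 to 49.8 CPM throughout.

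Irf8, best known as the factor that shapes monocytes, dendritic cells and B cells, went from near absence in WT to a measurable level in Lyso and Tumor. It lies at chr8:120736358-120756694 on the plus strand (ENSMUSG00000041515). WT1 and WT2 had 0 reads and WT3 had 1 read (0.059 CPM). ITF1 had 0 reads, Rel had 6 reads (0.402 CPM) and ITM had 6 reads (0.359 CPM). Lyso1, Lyso2 and Lyso3 held 51.8, 54.9 and 54.3 CPM, and Tumor1, Tumor3 and Tumor4 held 3.25, 9.26 and 29.7 CPM. The Lyso libraries lay close together (SD 1.64 CPM), the tumor libraries lay far apart (SD 13.8 CPM), and all 6 stood above every WT and relapsed library. Pooled over libraries, Lyso had 1808 reads and WT had 1, a ratio of 1130 per unit of depth with a 95% exact interval of 203 to 44700 for counting error alone. For Tumor the 182 reads gave a ratio of 312 (55.3 to 12400). The quasi-likelihood test called Irf8 higher in Lyso (adjusted p = 0.000305) and in Tumor (adjusted p = 0.000614) against WT, and lower in Tumor than in Lyso (log2 fold change -1.9 ± 0.5, edgeR adjusted p = 0.0143). That last call was lost without Tumor3 (adjusted p = 0.0745) and with DESeq2 (adjusted p = 0.103), and without Tumor4 the log2 fold change was -3.02. Against the relapsed lines, with their 0, 6 and 6 reads, the log2 fold change was 7.58 ± 0.71 in Lyso and 5.68 ± 0.74 in Tumor. Those reads were also too few to pass the filter, so against Relapsed too Irf8 could only be called higher.

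Irf2, which occupies the same DNA sites as IRF1 and mostly represses them, passed the test in Lyso against WT but not in Tumor or Relapsed. It lies at chr8:46739732-46847458 on the plus strand (ENSMUSG00000031627). WT1, WT2 and WT3 held 18.7, 25.8 and 27.7 CPM, and the relapsed lines ITF1, Rel and ITM held 28, 29.5 and 20.7 CPM. Lyso1, Lyso2 and Lyso3 held 86.9, 70 and 75 CPM, while Tumor1, Tumor3 and Tumor4 held 25, 23.6 and 27.3 CPM. Every Lyso library was therefore above every other library, and the other 9 libraries overlapped. The log2 fold change was 1.64 ± 0.17 in Lyso against WT (edgeR adjusted p = 0.000256) and -1.61 ± 0.17 in Tumor against Lyso (edgeR adjusted p = 2.91e-05). Between Tumor and WT it was 0.03, with an interval of -0.32 to 0.39.

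The promoters of these 3 genes are shown because each held a match to the GAS motif in the 250 bases before the RefSeq transcription start (GRCm38.p6). Bases inside the annotated gene were left out, which removed 13 bases for Irf2. Capitals mark matches to GAS (TTCNNNGAA, which reads the same on both strands) and to ISRE (GAAANNGAAA, searched on both strands):
Irf1, chr11:53769764-53770013, plus strand: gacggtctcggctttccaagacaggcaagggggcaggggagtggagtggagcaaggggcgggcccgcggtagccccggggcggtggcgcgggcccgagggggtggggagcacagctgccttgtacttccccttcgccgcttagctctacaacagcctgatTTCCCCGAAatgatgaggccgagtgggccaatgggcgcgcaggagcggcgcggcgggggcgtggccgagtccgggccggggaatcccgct
Irf8, chr8:120736108-120736357, plus strand: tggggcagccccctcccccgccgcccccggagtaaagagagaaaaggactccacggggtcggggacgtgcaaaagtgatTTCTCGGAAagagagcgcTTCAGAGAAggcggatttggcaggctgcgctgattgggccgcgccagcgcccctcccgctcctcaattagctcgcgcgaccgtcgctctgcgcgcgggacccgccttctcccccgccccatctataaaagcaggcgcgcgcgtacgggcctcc
Irf2, chr8:46739495-46739731, plus strand: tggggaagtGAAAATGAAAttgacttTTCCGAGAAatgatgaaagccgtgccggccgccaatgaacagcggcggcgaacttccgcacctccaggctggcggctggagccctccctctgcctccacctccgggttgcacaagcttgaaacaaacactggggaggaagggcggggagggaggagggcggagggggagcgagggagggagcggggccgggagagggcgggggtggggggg
Irf1 held 1 GAS match, TTCCCCGAA, whose first base lies 90 bases before the start. Irf8 held 2, TTCTCGGAA at 171 bases and TTCAGAGAA at 153 bases, which do not overlap. Irf2 held 1 GAS match, TTCCGAGAA, at 224 bases and 1 ISRE match, GAAAATGAAA, at 241 bases. All 8 genes had a window, 11 windows in all, and the other 8 windows, of Irf3, Irf4, Irf5, Irf7 and Irf9 and the second starts of Irf1 and Irf8, held neither motif. Part of the Irf4 and Irf7 windows was likewise left out, and both Irf9 windows and the second windows of Irf1 and Irf8 lie wholly inside the annotated gene. Of 32851 windows of 250 bases in the table, 7.02% held a GAS match and 2.98% an ISRE match, so a match is a description of the sequence and does not show binding.

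Irf9, the DNA-binding subunit of ISGF3, and Irf7, the amplifier of type I interferon, were spread widely among the WT libraries, with WT3 high for both. Irf9 (ENSMUSG00000002325) lies at chr14:55603571-55610030 on the plus strand and Irf7 (ENSMUSG00000025498) at chr7:141262706-141266481 on the minus strand. Irf9 was at 7.92 CPM in WT1, 4.64 CPM in WT2 and 56 CPM in WT3. The relapsed lines ITF1, Rel and ITM held 16.4, 28.6 and 6.41 CPM. Lyso1, Lyso2 and Lyso3 held 60.7, 66.3 and 64.3 CPM, and Tumor1, Tumor3 and Tumor4 held 22.4, 25 and 44.7 CPM. Lyso exceeded WT1 and WT2 widely and WT3 narrowly, while Tumor overlapped WT. Irf7 had 0 reads in WT1, 1.27 CPM (3 reads) in WT2 and 18.1 CPM (307 reads) in WT3. It was 3.53, 4.89 and 0.839 CPM in ITF1, Rel and ITM, 38.2, 31.2 and 29.4 CPM in Lyso1, Lyso2 and Lyso3, and 12.4, 10.5 and 21.2 CPM in Tumor1, Tumor3 and Tumor4. All Lyso libraries were above all others for both genes.

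With all WT libraries, neither Irf9 (log2 fold change 1.22 ± 0.65, edgeR adjusted p = 0.342) nor Irf7 (1.83 ± 0.71, adjusted p = 0.181) passed the test in Lyso against WT. Without WT3 both passed, Irf9 with 3.39 (edgeR adjusted p = 0.0138) and Irf7 with 5.49 (adjusted p = 0.00692). With WT3 as the sole control the changes were 0.18 and 0.85, and neither passed. For Tumor against WT the changes were 0.17 for Irf9 and 0.67 for Irf7 with all controls, and 2.34 (edgeR adjusted p = 0.0396) and 4.32 (adjusted p = 0.0163) without WT3. Set against the relapsed lines, in the fit that shares its spread with WT, Irf7 rose by 3.43 ± 0.74 in Lyso (edgeR adjusted p = 0.0137), and Irf9 had a log2 fold change of 1.9 ± 0.64 (adjusted p = 0.0966). Fitted on Lyso and Relapsed alone, Irf9 passed as well (1.9, edgeR adjusted p = 0.0442). The Irf7 call was lost without Lyso1 (adjusted p = 0.0633). In Tumor against Lyso, Irf7 had -1.16 ± 0.69 (edgeR adjusted p = 0.246) and Irf9 -1.05 ± 0.65 (adjusted p = 0.267). Fitted on those 2 groups alone, both were lower, with log2 fold changes of -1.16 ± 0.21 for Irf7 (edgeR adjusted p = 0.00103) and, for Irf9, -1.04 ± 0.19 (adjusted p = 0.000887).

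Irf3 and Irf5, whose proteins are switched on by phosphorylation rather than by synthesis, stayed within a narrow range. Irf3 (ENSMUSG00000003184) lies at chr7:44997648-45002848 and Irf5 (ENSMUSG00000029771) at chr6:29526625-29541871, both on the plus strand. Irf3 was 49.8, 34.6 and 35.9 CPM in WT1, WT2 and WT3, 31.6, 45.4 and 39 CPM in ITF1, Rel and ITM, 46.1, 41.6 and 45 CPM in Lyso1 to Lyso3, and 32.8, 29 and 37.9 CPM in Tumor1, Tumor3 and Tumor4. Irf5 was 21.5, 34.6 and 33.6 CPM in WT, 36.2, 31.4 and 39.2 CPM in the relapsed lines, 41.6, 36.6 and 37.8 CPM in Lyso, and 28, 29.6 and 26.6 CPM in Tumor, in the same order of libraries. No group was separate from all others for either gene, although the Lyso libraries lay above WT for Irf5. Tumor lay below Lyso for both genes and below the relapsed lines for Irf5. In Tumor against Lyso the log2 fold changes were -0.41 for Irf3 (interval -0.75 to -0.08) and -0.46 for Irf5 (-0.78 to -0.15), neither of them called. For the change in Lyso against WT the log2 fold changes were 0.17 for Irf3 (interval -0.17 to 0.5) and 0.34 for Irf5 (0.02 to 0.65), and in Tumor against WT they were -0.25 (-0.6 to 0.1) and -0.12 (-0.45 to 0.21). None of these passed the test, and the intervals exclude a doubling in either direction, which is 1 on this scale. In Irf5, 411 exonic bases (14.1%) lie opposite Tnpo3, so part of its count may come from that gene.

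Irf4, a factor of plasma cells and lymphocytes that pigment cells also use, was highest in Tumor. It lies at chr13:30749226-30766976 on the plus strand (ENSMUSG00000021356). WT1, WT2 and WT3 had 0, 2 and 6 reads, or 0, 0.844 and 0.354 CPM. The relapsed lines ITF1, Rel and ITM held 0.691, 3.01 and 1.44 CPM. Lyso1, Lyso2 and Lyso3 held 2.64, 2.51 and 1.94 CPM, and Tumor1, Tumor3 and Tumor4 held 3.25, 5.43 and 5.18 CPM. Tumor lay above every other library and Lyso above WT, while Relapsed overlapped both WT and Lyso. Irf4 rose by 3.55 ± 0.67 in Tumor against WT (edgeR adjusted p = 0.00274) and by 2.57 ± 0.67 in Lyso against WT (adjusted p = 0.049). The Lyso call was lost when any of the 6 libraries was left out (edgeR adjusted p up to 0.301, without WT3), and the Tumor call was lost without WT3 (edgeR adjusted p = 0.05, not under the threshold). Of the partners through which IRF4 acts in pigment cells, Mitf, the master regulator of melanocytes, was at 442 ± 188 CPM (SD, n = 3) in WT and 884 ± 67.8 CPM in Tumor, a log2 fold change of 0.99 ± 0.24 (edgeR adjusted p = 0.0113) that lay under the fold threshold. Tyr, tyrosinase, had a log2 fold change of 0.46 and Tfap2a of 0 in the same comparison, and in Lyso against WT the 3 genes had 0.08 (Mitf), 0.49 (Tyr) and 0.06 (Tfap2a), none past the test. Without WT3, 1 of the 3 was called higher in Tumor against WT.

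Counted together, 4 of the 8 genes (Irf1, Irf2, Irf4 and Irf8) were called higher in Lyso against WT, where calls needed an adjusted p under 0.05 and a log2 fold change over 1 and took 2.43% of the 14924 genes. Against WT, Tumor had 3 (Irf1, Irf4 and Irf8) called higher, against 8.56% of all genes. None was called lower in either comparison, where 0.576% and 2.2% of all genes were. Both comparisons used the same WT libraries. Irf4 and Irf8, with few WT reads, passed the filter through other groups, so against WT they could only be called higher. Of the other members, Irf1 and Irf2 were called in Lyso against WT, and Irf1 alone in Tumor against WT. In Tumor against Lyso 3 genes (Irf1, Irf2 and Irf8) were lower, against 4.14% of all genes. Irf8 also had few reads in Relapsed, so against Relapsed it could likewise only be called higher. In Lyso against Relapsed 4 (Irf1, Irf2, Irf7 and Irf8) were higher, against 3.21%, and in Tumor against Relapsed 3 (Irf1, Irf4 and Irf8) were higher, against 8.36%. The call of Irf4 in that last comparison (log2 fold change 1.44 ± 0.47, edgeR adjusted p = 0.0469) was lost without any one of 5 of the 6 libraries. None of the 8 was called in Relapsed against WT, where edgeR called 0.0402% of all genes, and Irf4 alone of the 8 had an unadjusted p under 0.05 there (0.00836), with an adjusted p of 0.304. DESeq2, which gave Irf7 no adjusted p, called none of the others.

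**Figure D2:**
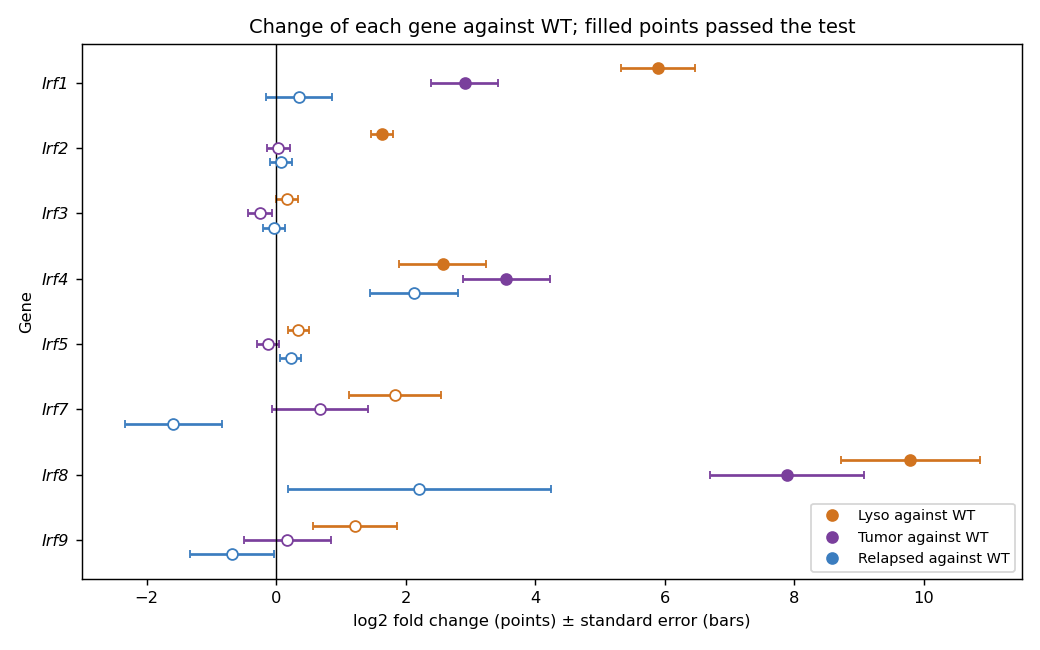
Log2 fold change of each gene against WT (points) with its standard error (bars) in Lyso, Tumor and Relapsed, where filled points passed the test. Irf1, Irf2, Irf4 and Irf8 are filled in Lyso, Irf1, Irf4 and Irf8 are filled in Tumor, and no point is filled in Relapsed.

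Per kilobase of exon, which allows levels to be compared between genes, Irf3 (11.6 ± 2.45 CPM per kb, SD, n = 3) and Irf5 (10.3 ± 2.51) led in WT, ahead of Irf9 (4.24), Irf2 (3.25), Irf1 (2.55), Irf7 (1.71), Irf4 (0.0815) and Irf8 (0.00279). Irf3 and Irf5 differed by less than their SDs, and neighbours from Irf9 to Irf7 by less than the larger SD of each pair. The places of Irf9 and Irf7 rest on WT3: Irf9 was at 1.47, 0.862 and 10.4 CPM per kb in WT1, WT2 and WT3, and Irf7 at 0, 0.335 and 4.79 CPM per kb. In the relapsed lines Irf5 (12.2 CPM per kb) and Irf3 (11.2) led Irf1 (3.92), Irf2 (3.52), Irf9 (3.18), Irf7 (0.817), Irf4 (0.35) and Irf8 (0.036). In Lyso, Irf1 came first with 181 ± 13.8 CPM per kb, and Irf5 (13.3), Irf3 (12.9), Irf9 (11.8), Irf2 (10.5), Irf7 (8.72) and Irf8 (7.6) followed, with Irf4 at 0.483. Of these neighbours, Irf5 and Irf3, and Irf7 and Irf8, differed by less than the larger SD of the pair. In Tumor, Irf1 was again first at 22.9 ± 18.3 CPM per kb, and its SD exceeded its distance from Irf3 (9.66) and Irf5 (9.65). Irf9 (5.7), Irf7 (3.88), Irf2 (3.42), Irf8 (1.99) and Irf4 (0.943) followed.

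Of the receptors and relays upstream of these factors, Stat2, a subunit of ISGF3, was called higher in Lyso against WT (3.35 ± 0.44, edgeR adjusted p = 0.000843), from 17.7 ± 9.9 to 200 ± 2.31 CPM (SD, n = 3). Ifnar2 (0.84) and Jak2 (0.64) had adjusted p of 0.0247 and 0.0178 by edgeR with changes under the fold threshold, and Ifngr1 (-0.29), Ifngr2 (0.04), Ifnar1 (0.13), Jak1 (-0.18) and Tyk2 (-0.22) did not pass. None was called in Tumor against WT. There Ifngr1 had 0.58, Jak2 0.45, Stat2 0.52, Ifnar2 0.35, Ifngr2 0.15, Ifnar1 0.13, Jak1 0.11 and Tyk2 -0.4 on the log2 scale. In Tumor against Lyso, Stat2 was lower (log2 fold change -2.83, edgeR adjusted p = 0.000416).

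Transcripts of the interferons were scarce. Of the 9 genes listed (Ifng, Ifnb1, Ifna2, Ifna4, Ifna5, Ifne, Ifnk, Ifnl2 and Ifnl3), none had enough reads to be tested, and their summed level was at most 0.567 CPM in any library. Ifng, the type II interferon of T and NK cells, had 2 reads in Lyso1, 5 in Lyso3 and 1 in Tumor4, and 0 in the other 9 libraries.

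Among sensors and adaptors that activate IRF proteins, 3 of the 16 tested (of 18 listed) were higher in Lyso against WT and none was lower, with a median log2 fold change of 0.3 beside 0 for all genes. The count was 6 without WT3 and 2 with WT3 as the sole control. Myd88, the adaptor of Toll-like receptors, rose by 1.39 ± 0.15 (edgeR adjusted p = 0.000345), Tmem173, which encodes the DNA-sensing adaptor STING, by 1.51 ± 0.18 (adjusted p = 0.00055), and Tlr3, the receptor for double-stranded RNA, by 1.84 ± 0.41 (adjusted p = 0.023). In Tumor against WT none of the 16 was called, and the 3 with the smallest adjusted p were Ticam1, the adaptor of TLR3 (-0.89), Tlr4 (-0.44) and Myd88 (0.26). Among 12 tested DNA-binding partners and regulators of IRF proteins (of 13 listed), Batf2 (2.34 ± 0.32, edgeR adjusted p = 0.00114) and Trim21 (2.5 ± 0.56, adjusted p = 0.023) rose in Lyso against WT, while Tcf3 had -0.5. Ikzf1, a lymphoid factor outside the naming rule and noted after its values were seen, was the third call, at 13, 21 and 6 reads in Lyso1, Lyso2 and Lyso3 against 1 read in all of WT. Without WT3 the count of partners was 2, and with WT3 as the sole control it was 1. None was called in Tumor against WT, with Irf2bpl at 0.69, Irf2bp2 at 0.82 and Batf at 1.19.

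Targets of the 2 branches were set beside the members. Of 23 tested interferon-gamma response genes (of 25 listed), 20 were higher in Lyso against WT and none was lower, with a median log2 fold change of 4.76. Some of the 23, such as Cxcl9, Psmb8 and Gbp6, had few WT reads and passed the filter through other groups. Against WT these could only be called higher, in Lyso and in Tumor alike. Socs1, the feedback inhibitor of JAK signaling, rose by 4.56 ± 0.46 (edgeR adjusted p = 0.000212), Gbp6, a guanylate-binding GTPase, by 7.12 ± 0.75 (adjusted p = 0.000256), and Cxcl10, a T-cell chemokine, by 4.13 ± 0.43 (adjusted p = 0.000256). The count was 16 without WT3 and 11 with WT3 as the sole control. The exceptions were Nos2, Ccl5 and Casp1, named after their values were seen. In Tumor against WT 15 of the 23 were higher and none was lower, with a median of 2.99. Asking for at least 10 counts in every library compared removed low genes from the test. It left 4 of the list called higher in Lyso against WT and 1 in Tumor against WT. Cxcl9, a chemokine that recruits T cells, was at 17.9, 22.9 and 48 CPM in Tumor1, Tumor3 and Tumor4 and at 2.67 to 3.17 CPM in Lyso. Nos2, inducible nitric oxide synthase, was at 25.7, 28.8 and 7.77 CPM in these tumor libraries, with 1 read in all of Lyso and none in WT. Psmb8, an immunoproteasome subunit, was at 14, 37.8 and 129 CPM in Tumor and 16.1 to 17.5 CPM in Lyso. The summed list had the same order as Irf1 over the tumor libraries, at 463, 783 and 2210 CPM in Tumor1, Tumor3 and Tumor4.

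Of 20 ISGF3 targets, all tested, 4 were higher in Lyso against WT and none was lower, with a median of 1.92. They were Zbp1, a sensor of Z-form nucleic acid (5.91 ± 0.68, edgeR adjusted p = 0.000425), Mx1 (2.99 ± 0.47, adjusted p = 0.00305), Oasl2 (4.03 ± 0.78, adjusted p = 0.0102) and Eif2ak2, which falls outside the naming rule. Without WT3 the count was 14, and with WT3 as the sole control it was 2. In Tumor against WT 2 of the 20 were higher, where 8.56% of all genes were. These were Zbp1 (4.22 ± 0.7, edgeR adjusted p = 0.00121) and Oas3 (5.48 ± 1.23, adjusted p = 0.00769). Oas3 had 0, 0 and 1 reads in WT1, WT2 and WT3, and Zbp1 had 0, 0 and 26. Both passed the filter through other groups, so against WT they could only be called higher, Zbp1 in Lyso as well. Oas2 had 1.87 (edgeR adjusted p = 0.0636), and the median of the list was 0.1. The count was 8 without WT3. In Relapsed against WT no gene of either list was called. The ISGF3 list summed to 299, 345 and 158 CPM in ITF1, Rel and ITM, above or level with WT1 and WT2 and below WT3. WT3 was the highest WT library in Irf9 and in the summed ISGF3 list.

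**Figure D3:**
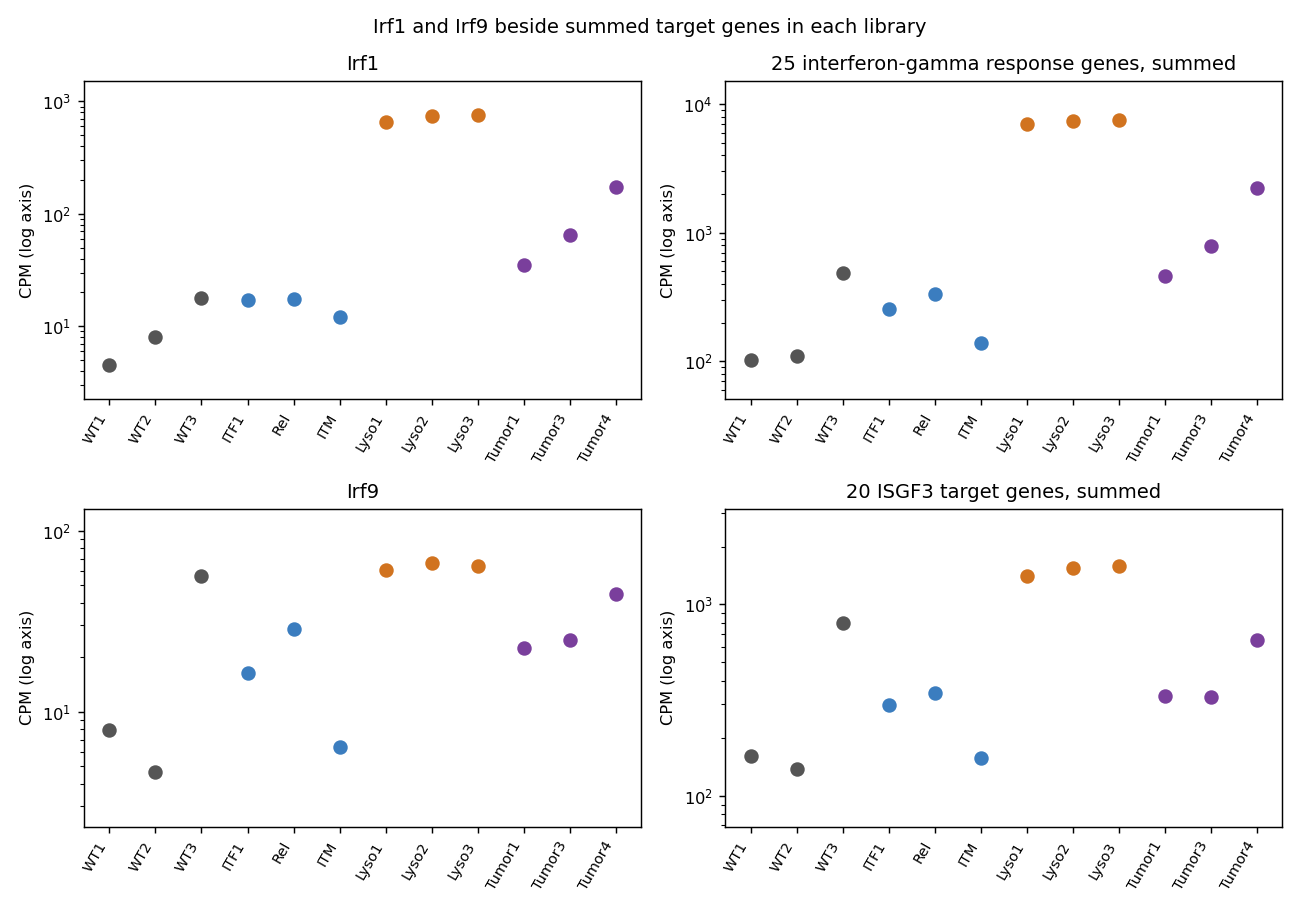
Level of Irf1 and Irf9 beside the summed level of 25 interferon-gamma response genes and 20 ISGF3 targets in each of the 12 libraries (CPM, log axes). Lyso is highest for Irf1 and its summed list (7040 to 7570 CPM), while for Irf9 and the ISGF3 list (1400 to 1580 CPM in Lyso) WT3 stands at 56 and 801 CPM, far above WT1 and WT2.

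Marker transcripts of host cell types were found in the sorted tumor libraries, and T-cell transcripts in the granule-treated cultures. In bulk RNA, a difference in the number of cells of a type and a difference in RNA per cell cannot be told apart. The 10 fibroblast markers summed to 7710 to 10700 CPM in Tumor against 30 to 39.5 CPM in WT, and all 10 were higher. Some of these had almost no WT reads and passed the filter through other groups, so they could only be called higher. The 10 macrophage markers summed to 54, 70 and 76.7 CPM in Tumor1, Tumor3 and Tumor4 against 12.5 to 29.2 CPM in WT and 31.3 to 33.6 CPM in Lyso. Of the 8 tested, 6 were higher in Tumor against WT and none in Lyso against WT. Most of those called, among them C1qa and C1qb, had almost no WT reads. They passed the filter through Tumor, so there they could only be called higher than WT. C1qa and C1qb, complement genes that define macrophages, were at 4.23 to 7.77 CPM in Tumor and had 0 reads in every other library. The 8 endothelial markers summed to 55.6 to 61.1 CPM in Tumor and 13.5 to 24.9 CPM in WT. The 6 pan-leukocyte markers summed to 8.45, 11.5 and 21.9 CPM in Tumor1, Tumor3 and Tumor4, to 10.9 to 14.7 CPM in Lyso and to 0 to 2.53 CPM in WT. Tumor4 was the highest tumor library for Irf1, Irf8 and the melanocyte, leukocyte and macrophage sums. It was also the highest for the sums of dendritic, B and plasma cell, and T and NK cell markers. For the fibroblast and endothelial sums it was the lowest. Not every macrophage marker was highest in Tumor4, and this order covers 3 libraries only. The part of host cells in the Irf1, Irf4 and Irf8 differences of Tumor was not tested. Spi1, the myeloid partner of IRF8, had 11, 7 and 6 reads in Tumor1, Tumor3 and Tumor4, or 3.58, 1.41 and 1.41 CPM. It was at 1.13, 1.27 and 0.177 CPM in WT1, WT2 and WT3, and at most 0.377 CPM in Lyso.

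In Lyso the 12 T and NK cell markers summed to 15.5 to 17.4 CPM against 1.27 to 6.79 CPM in WT. Gzmb, a cytotoxic granule protease, was at 5.1 to 6.71 CPM in Lyso and had 0 reads in WT, Cd8a was at 1.21 to 2.27 CPM, and Cd3e and Cd3g reached at most 0.652 CPM. The 8 B and plasma cell markers, of a lineage in which IRF4 and IRF8 are both used, summed to 4.62 to 8.76 CPM in Lyso, 1.01 to 9.42 CPM in Tumor and 0 to 0.844 CPM in WT. The 8 dendritic markers summed to 5.64 to 8.47 CPM in Tumor, 5.75 to 7.54 CPM in Lyso and 4.72 to 5.49 CPM in WT, mostly from Zbtb46, and Siglech had at most 1 read in any library. In the same Lyso libraries Irf8 was at 51.8 to 54.9 CPM and Irf4 at 1.94 to 2.64 CPM, and C1qa and C1qb had no read. The part of T-cell RNA in the Lyso values of Irf1, Irf2, Irf4 and Irf8 was not tested.

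**Figure D4:**
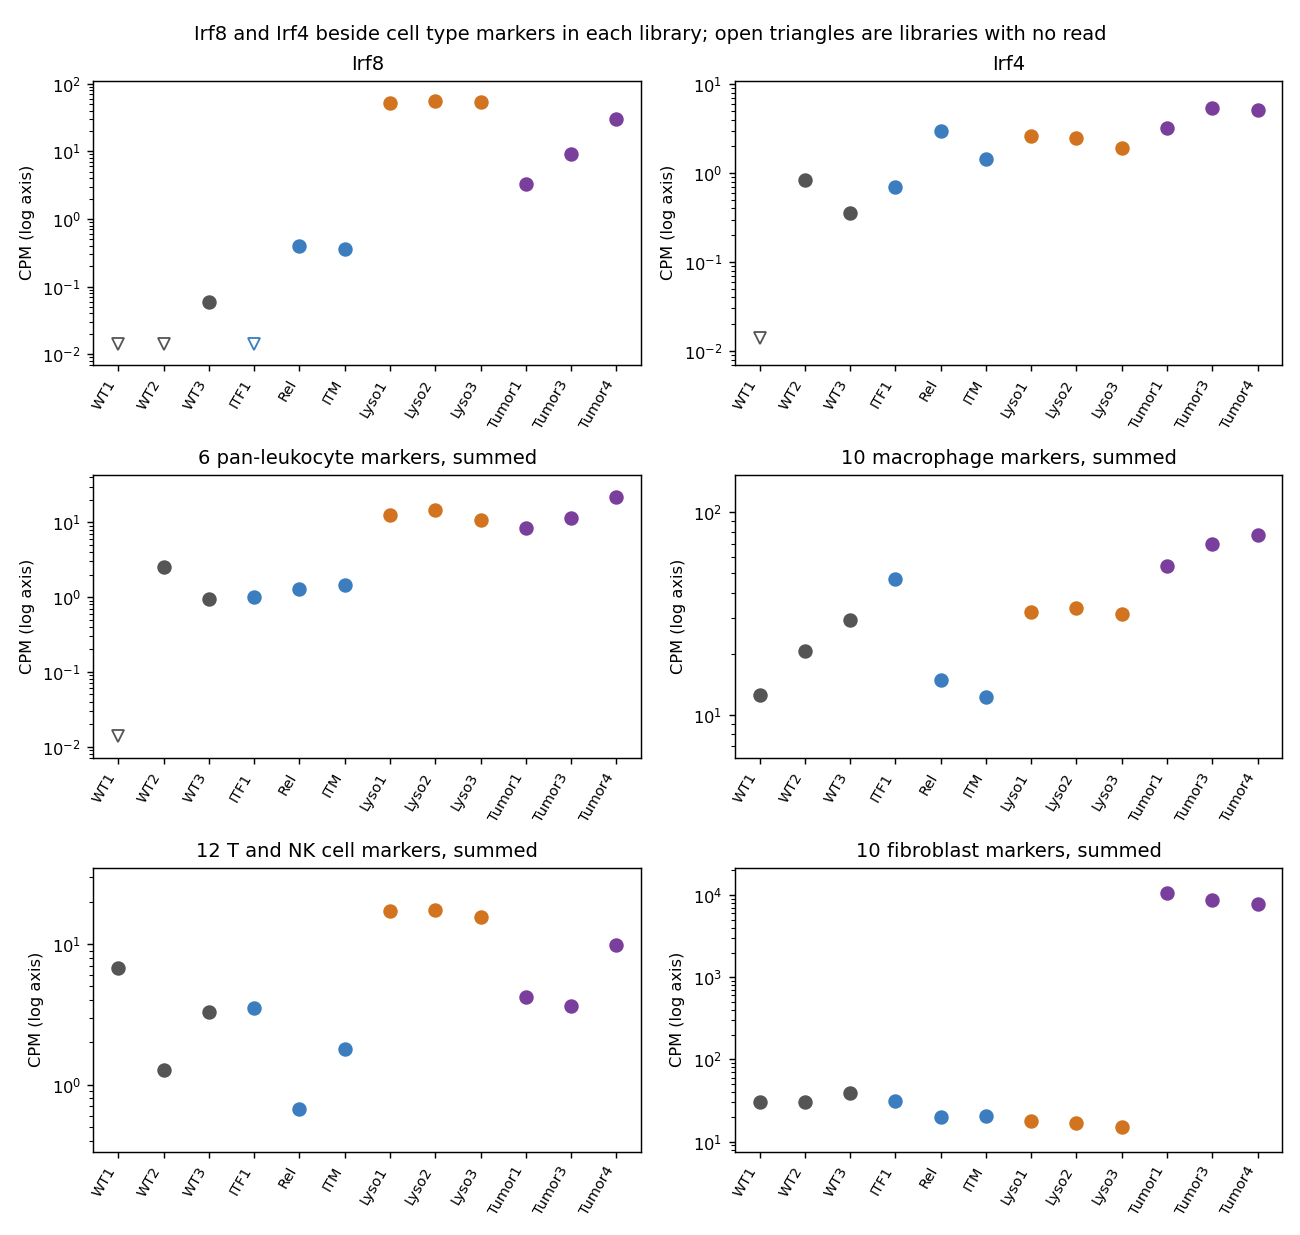
Level of Irf8 and Irf4 beside summed marker genes of leukocytes, macrophages, T and NK cells, and fibroblasts in each of the 12 libraries (CPM, log axes, libraries without a read as open triangles). Fibroblast markers reach 7710 to 10700 CPM in Tumor alone, T and NK markers are highest in Lyso at 15.5 to 17.4 CPM, and Irf8 is at 51.8 to 54.9 CPM in Lyso.

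Genes most like each called member were ranked by Pearson correlation of log2 CPM over the 12 libraries, which share their group means, so the coefficients only describe the pattern. Irf1 was followed most closely by Gbp6 (r = 0.991), Gm17334 (0.986), the transcript that overlaps it on the other strand, and Erap1, an aminopeptidase that trims antigenic peptides (0.983). Irf8 was followed by Tgtp1 (0.989), Olfr56 (0.981) and Gm4841 (0.981), where Tgtp1 is a GTPase gene with close copies whose reads may be shared. Irf2 was followed by Ripk1, a kinase of TNF signaling (0.974), Rbck1 (0.97) and Agfg1 (0.967). Irf4 was followed by Hif1a, the oxygen-regulated factor (0.971), Insig1, a regulator of cholesterol synthesis (0.969), and Clasp1 (0.951).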

How the data were processed

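RNA-seq libraries of B16F10 cells were trimmed by the authors with fastp 0.19.6 and aligned with STAR 2.7.1a to GRCm38 (mm10), and the deposited values are raw counts per Ensembl gene. The submitters' processing notes also list DESeq2 1.24.0. The counter's strand setting and annotation release were not given in the sources used here. The 4 rows that name no gene were left out: they held 60.64% to 63.83% of each column, so depth is stated on genes, 1667398 to 16402629 counts per library.

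Symbols, positions and exon unions came from GENCODE vM21, which matched 54165 of 54232 identifiers. Groups followed the labels. All 12 libraries entered a single edgeR 4.0.16 quasi-likelihood fit (R 4.3.3, TMM scaling, filterByExpr), with Benjamini-Hochberg adjustment over the 14924 genes kept. Calls required an adjusted p below 0.05 together with a log2 fold change beyond 1 in size. CPM values are TMM-scaled, and intervals of fold changes are the estimate ± 1.96 SE. The SE is the absolute log2 fold change divided by the square root of F. Code was tested on simulated data. The ratio of Irf8 reads has an exact (Clopper-Pearson) interval. Correlations used log2 CPM with a prior count of 2. RefSeq promoter windows (GRCm38.p6) were searched for 2 motifs.

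The 8 members, the gene lists and the cell type markers were chosen with earlier results of these data known. Genes were named by rule: all members, the 3 genes of each list with the smallest adjusted p in Lyso and in Tumor against WT (markers by their sums and defining genes only), every receptor or relay, interferon and pigment gene listed (1 relay gene is not reported here), and the 3 genes most correlated with each called member. Alternatives were DESeq2 1.42.0, RLE and library-size scaling, other filters on low counts, fits of the compared groups alone, a test against a log2 fold change of 1, a replicate block, and each library left out.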

Additional observations from a re-analysis of the deposited data

How the results depend on the processing

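Irf1 and Irf8 were called higher in Lyso and in Tumor against WT under every alternative that could test them, as was Irf2 in Lyso. Asking for at least 10 counts in every library compared removed low genes from the test, and left 1 member called in Lyso against WT (Irf2), 0 in Tumor against WT and 1 in Tumor against Relapsed (Irf1). It also left 1 ISGF3 target called higher in Lyso against WT and 0 in Tumor against WT. Without a filter on low counts, 2 members were called in Relapsed against WT (Irf4 and Irf7) and 5 in Tumor against Lyso. Fitting only Tumor and Lyso gave 6 there, adding Irf7 and Irf9 (lower) and Irf4 (higher, 1.01). The cause was not tested. Leaving out 1 library gave 3 to 5 called members in Lyso against WT, 3 to 4 in Tumor against WT, 2 to 3 in Tumor against Lyso, 3 to 4 in Lyso against Relapsed and 2 to 4 in Tumor against Relapsed. DESeq2 gave no adjusted p for Irf7, which was not counted there. Of the ISGF3 targets higher in Lyso against WT, DESeq2 called 7 and the fit without a filter 15, and that fit also called Irf7 and Irf9.

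Samples with the same number did not deviate together (correlations -0.00809 to 0.0649), so numbers are not taken to pair them. With a replicate block, 4, 3 and 3 members were called in Lyso against WT, Tumor against WT and Tumor against Lyso, and the uncalled log2 changes of Irf2 (-0.06) and Irf9 (-0.11) in Tumor against WT turned negative.

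Other signs turned among uncalled changes near 0. In Tumor against WT, Irf2 was -0.03 with library size only and -0.02 without a filter, and leaving out 1 library gave -0.1 to 0.17 for Irf2 and -0.24 to 2.34 for Irf9. In Relapsed against WT, WT3 as the sole control gave -0.2 for Irf1, -0.09 for Irf2 and 0.11 for Irf3, and no filter gave 0 for Irf3. Leaving out 1 library there gave -0.06 to 0.21 for Irf2, -0.16 to 0.12 for Irf3, -2.15 to 2.05 for Irf7 and -1.29 to 1.47 for Irf9, positive for the last pair without WT3. In Tumor against Relapsed, Irf2 ran from -0.19 to 0.05. Depth limits Irf4, Irf7 and Irf8 in WT1 and WT2, where 3 counts are 1.8 and 1.28 CPM.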
